A study of Mus musculus with 24 samples.

Results

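The 30 genes described here are genes known to be enriched in astrocytes of the mouse brain, read in the hippocampus of offspring of males fed a methyl donor diet (MD) or a control diet (CD). They were picked by gene symbol, with earlier results of these data known, and each was read on the probe with the brightest mean signal over the 24 arrays. All 30 genes were found among the 19751 gene symbols on the array, and the 30 probes were well above background on all 24 arrays, with mean log2 signals from 9.71 to 17.53. They included the defining astrocyte markers Gfap, Aqp4, Slc1a2, Slc1a3 and Aldoc, so that astrocyte RNA was measured on every array. The array carried 43 probes for these genes, since 10 of them had more than 1.

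Astrocytes remove glutamate from the synaptic cleft, convert it to glutamine and return that to neurons, and their end-feet around blood vessels carry water channels and potassium channels. Gap junctions join them into networks, and they store glycogen and release lactate. In the hippocampus these functions set how long transmitter and potassium persist around active synapses. After injury astrocytes become reactive, with more of the intermediate filament protein GFAP.

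The males were C57BL/6J mice kept for 6 weeks on the control diet (T.2918.12, Envigo) or on the methyl donor diet (3MS ZM), to which methionine, choline, betaine, folic acid, vitamin B12 and zinc had been added, and were then mated with 129S6/SvEv females. Their F1 offspring, labelled congenic C57BL/6J x 129S6/SvEv hybrids, formed the CD F1 and MD F1 groups. F1 males of either line were mated with CD F1 females to give the CD F2 and MD F2 groups, labelled mixed C57BL/6J x 129S6/SvEv hybrids. All offspring ate a control diet and carried no engineered allele, and the labels give an age of 4 weeks. Each group held 6 arrays and each array held RNA of hippocampi pooled from 4 mice, so that the spread between arrays is a spread between pools, and the number of arrays limits the precision.

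By the scan date in the file headers, the arrays of each generation fell into 3 sets with 2 arrays of each diet. These sets are called slides here, since no slide label was read. Slide and diet could be separated, and slide and generation could not. Median background-corrected intensities, before scaling between arrays, ranged from 251 to 318 in CD F1, 167 to 262 in MD F1, 151 to 262 in CD F2 and 148 to 262 in MD F2. In hippocampal tissue fewer astrocytes and less RNA per astrocyte cannot be told apart. In their mean correlation with the other arrays of their group over all probes, MD F1 replicate 6 (0.986), CD F2 replicate 6 (0.976) and MD F2 replicate 3 (0.974) stood apart from the rest (0.992 to 0.995 in F1 and 0.986 to 0.988 in F2). The F1 values that MD F1 replicate 6 moved by over 1.5 times are given with and without it. A sex measure was taken as the difference between Y-linked genes (Uty, Kdm5d, Eif2s3y, Ddx3y; averaged log2 signals) and Xist. It was 0.11 on MD F1 replicate 6 and between -2.32 and -0.82 on the other F1 arrays. The list of choroid plexus genes, a tissue that adjoins the hippocampus, had mean log2 signals from 7.31 to 12.54 over the F2 arrays and from 7.79 to 11.94 over the F1 arrays.

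Since the diet supplied methyl groups, the CpG dinucleotides, at which mammalian DNA is methylated, are shown for 3 genes on which the results below turn. The windows are the 250 bases before the annotated transcription start, in the direction of transcription, from RefSeq on GRCm38.p6, with each CpG in capitals. Slc1a2 and Gfap have 1 start in the table, and of the 3 starts of Ndrg2 the first listed is shown.
Slc1a2 (chr2:102706188-102706437, plus strand): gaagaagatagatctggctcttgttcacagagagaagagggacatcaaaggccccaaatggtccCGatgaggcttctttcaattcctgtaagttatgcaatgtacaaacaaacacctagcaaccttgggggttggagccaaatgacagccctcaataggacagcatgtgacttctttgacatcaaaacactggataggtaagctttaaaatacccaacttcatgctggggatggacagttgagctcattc
Ndrg2 (chr14:51914005-51914254, minus strand): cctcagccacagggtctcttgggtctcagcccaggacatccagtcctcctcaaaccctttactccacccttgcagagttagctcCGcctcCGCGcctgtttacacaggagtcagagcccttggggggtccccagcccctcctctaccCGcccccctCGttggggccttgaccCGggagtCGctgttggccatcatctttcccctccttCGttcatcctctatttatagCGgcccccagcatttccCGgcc
Gfap (chr11:102897201-102897450, minus strand): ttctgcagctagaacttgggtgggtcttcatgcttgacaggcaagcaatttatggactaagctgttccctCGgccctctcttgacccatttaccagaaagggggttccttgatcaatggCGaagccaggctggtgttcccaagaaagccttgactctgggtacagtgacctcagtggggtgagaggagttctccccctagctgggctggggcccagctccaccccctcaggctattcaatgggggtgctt

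The Slc1a2 window held 1 CpG, the Gfap window 2 and the Ndrg2 window 10. Over the 26 members whose windows were read, the median was 4.5 CpGs, from 0 in Mlc1 to 44 in Slc4a4, against a median of 6 over the windows of 27025 genes. The letters TTCNNNGAA, a STAT motif that reads the same on both strands, were found in 4 of 26 member windows, those of Acsbg1, Ntsr2, Pla2g7 and Slc1a3, and in 7.18% of all windows. The letters TATAAA, sought on both strands, were found in the windows of Ndrg2, Slc1a3 and Slc39a12 and in 13.0% of all windows. The letters ACAATG, a SOX motif sought on both strands, were found in 0 of 26 member windows and in 2969 of the 27025 windows. DNA methylation was not measured on these arrays.

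The first comparison asks whether a father's methyl donor diet was accompanied by a difference in astrocyte genes of his offspring's hippocampus. Of the 30 genes, 27 had lower mean signals in MD F1 than in CD F1, with a median log2 fold change of -0.11 and a range from -0.62 to 0.15. The lowest values belonged to the glutamate transporter gene Slc1a2, to the glutamine synthetase gene Glul, to Gfap and to Hepacam, a cell adhesion protein of end-feet. No member passed the false discovery rate (FDR) of 0.1 by limma with Benjamini-Hochberg adjustment over all probes, and the lowest FDR was 0.198, of Ndrg2. Over all 39429 probes 13 passed, or 0.033%.

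At an unadjusted p under 0.05, 5 of 30 members differed in F1, all of them lower in MD F1, against 14.4% of all probes in either direction and 7.48% lower. Among the 13460 probes at least as bright as the dimmest member, 6.37% were lower at this threshold. A log2 fold change below 0 was found for 48.5% of all probes and 49.3% of these brighter ones, whose median was 0.0024. The share of members below 0, 90.0%, thus lay above that of the array, but the members share arrays and are not independent of each other. Scaling to the 75th percentile left 22 members below 0, with the median of all probes at -0.026. With no scaling all 30 were below 0 while the median of all probes was itself -0.28. The shares of all probes below 0 under these scalings are not given here.

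**Figure D1:**
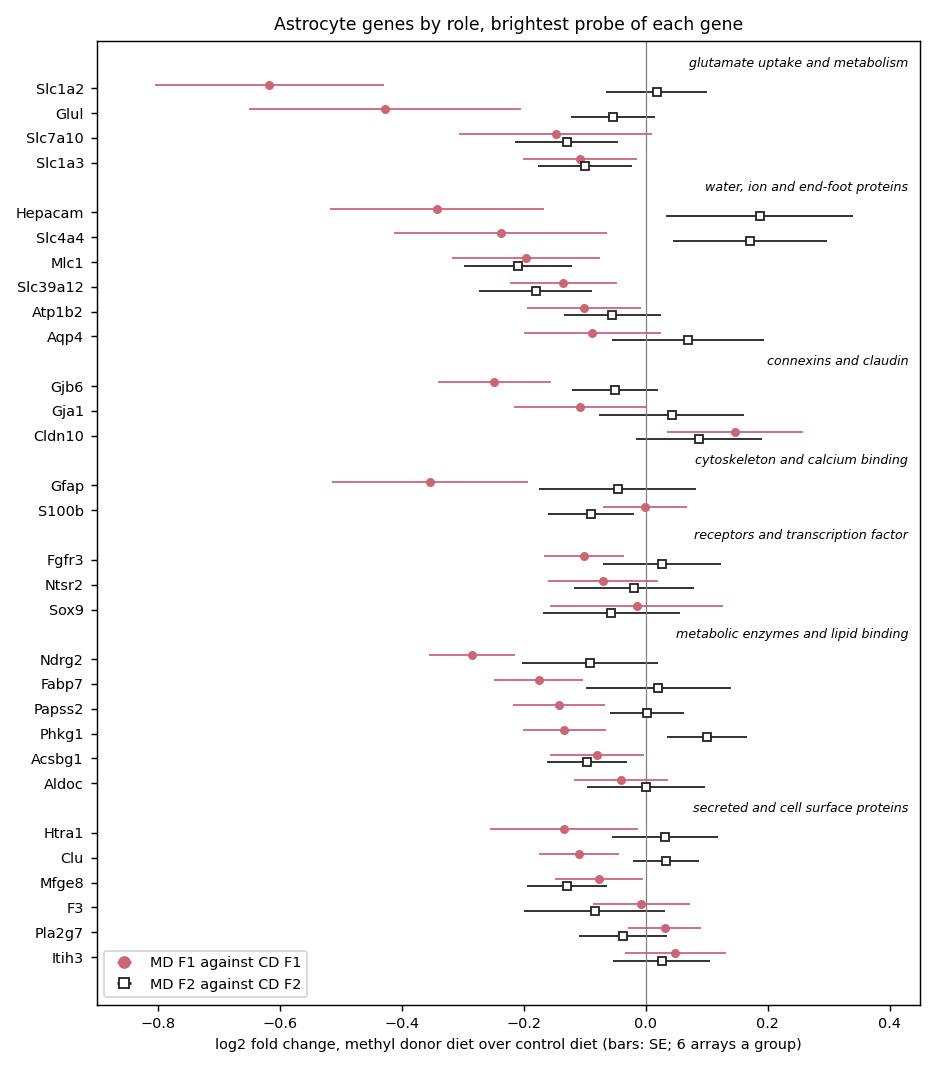
Log2 fold changes of the 30 astrocyte genes, grouped by role, for MD F1 against CD F1 (filled circles) and MD F2 against CD F2 (open squares), with SE bars and 6 arrays a group. The F1 values of 27 genes lie left of 0, with Slc1a2 at -0.62, whereas 16 of the F2 values do.

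Slc1a2 encodes the transporter GLT-1, which takes up most of the glutamate released in the forebrain. Its brightest probe, A_55_P1955412, had log2 signals of 14.34, 14.34, 14.04, 14.12, 14.03 and 13.86 in CD F1 and of 13.64, 13.63, 13.87, 13.48, 13.78 and 12.62 in MD F1. The groups overlapped by 0.01, since the highest MD F1 array lay just above the lowest CD F1 array. The log2 fold change was -0.62 with an SE of 0.188, a fold of 0.652, with an unadjusted p of 0.00649 and an FDR of 0.221 by limma. The exact permutation test over the 6 against 6 arrays, two-sided, gave p = 0.00433.

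The other two probes of Slc1a2 showed the same direction. Probe A_55_P2136847 read 11.78, 11.92, 11.52, 11.46, 11.2 and 11.25 in CD F1. In MD F1 it read from 10.56 to 11.08 with a median of 10.96, below all CD F1 arrays, with a log2 fold change of -0.60 (SE 0.135, unadjusted p 0.000727, FDR 0.185 by limma). Probe A_55_P2392625 read 10.03, 10.63, 10.59, 10.25, 9.92 and 9.9 in CD F1 and 9.85, 9.69, 9.66, 9.45, 9.34 and 7.78 in MD F1, with a log2 fold change of -0.92 (SE 0.313, unadjusted p 0.012, FDR 0.256 by limma). On both of these probes every CD F1 array lay above every MD F1 array, which held with MD lower for 1.07% of all probes. For both the exact permutation test gave p = 0.00216, the smallest that this design allows two-sided. The 3 probes report on RNA of 1 gene and are not independent of each other.

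MD F1 replicate 6 was the lowest F1 array on all 3 probes of Slc1a2, but the direction did not rest on it. Without it the log2 fold changes were -0.44, -0.53 and -0.62, with unadjusted p-values of 0.00123, 0.0015 and 0.0024 and FDRs of 0.138 to 0.149 by limma. Within the 3 slides the difference of the brightest probe, MD minus CD, was -0.94, -0.24 and -0.67. With the sex measure added as a term, the brightest probe gave -0.26, with an unadjusted p of 0.0606 by limma.

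Ndrg2, a cytoplasmic protein abundant in astrocytes, had the smallest unadjusted p of the 30 in F1. Its log2 signals were 15.68, 15.8, 15.81, 15.73, 15.73 and 15.79 in CD F1 and 15.54, 15.4, 15.53, 15.67, 15.26 and 15.42 in MD F1. All CD F1 arrays lay above all MD F1 arrays, by 0.01 at the closest, and no other brightest probe of the 30 had groups that did not overlap. The log2 fold change was -0.28 (SE 0.0704, unadjusted p 0.00161, FDR 0.198 by limma). It was -0.27 without MD F1 replicate 6, -0.31 with the sex measure as a covariate, and -0.29, -0.47 and -0.10 within the 3 slides.

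Gjb6, the gap junction protein connexin 30, had log2 signals of 12.67, 13.06, 13.18, 13.07, 13.1 and 12.94 in CD F1 and 12.92, 12.61, 12.65, 12.83, 12.67 and 12.85 in MD F1. CD F1 replicate 1 lay among the lowest values of MD F1 and the other CD F1 arrays above all of them. The log2 fold change was -0.25 (SE 0.0927, unadjusted p 0.0201, FDR 0.284 by limma), and within slides it was -0.33, -0.42 and 0.0.

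Fabp7, a brain fatty acid binding protein of astrocytes and radial glia, had log2 signals of 13.77, 13.89, 13.91, 14.16, 14.05 and 14.02 in CD F1 and 13.8, 13.76, 13.74, 13.76, 13.74 and 13.95 in MD F1. MD F1 replicate 6 was its highest MD F1 array, unlike its place for Slc1a2. The log2 fold change was -0.18 (SE 0.0728, unadjusted p 0.0329, FDR 0.314 by limma) and -0.21 without that array.

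Gfap, the intermediate filament protein that marks reactive astrocytes, had log2 signals of 12.03, 12.01, 12.31, 12.42, 12.75 and 12.53 in CD F1 and 12.14, 12.12, 12.03, 12.08, 12.18 and 11.38 in MD F1 on its brightest probe. The 2 lowest CD F1 arrays lay within the MD F1 range. Its log2 fold change of -0.35 (SE 0.161, unadjusted p 0.0483, FDR 0.343 by limma) was -0.23 without MD F1 replicate 6, with an unadjusted p of 0.0943. The probes of Gfap disagreed, since A_55_P2157245 gave -0.16 and A_55_P2157250 gave 0.03.

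**Figure D2:**
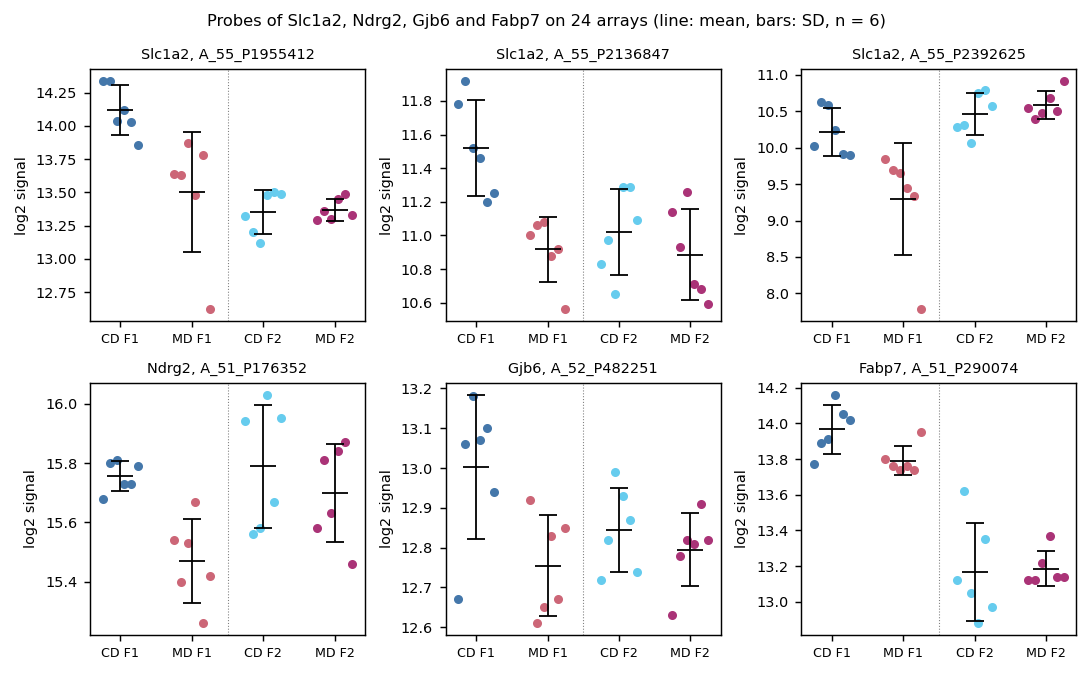
Log2 signals of the 3 probes of Slc1a2 and the probes of Ndrg2, Gjb6 and Fabp7 on each array, normalised within each generation, with mean and SD of 6 arrays. Within a panel, F1 and F2 are on separate scales of normalisation, and MD F1 replicate 6 is the lowest Slc1a2 point, at 12.62 on the brightest probe.

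The other genes of glutamate handling had values below 0, in part through MD F1 replicate 6. Glul, glutamine synthetase, had a log2 fold change of -0.43 (SE 0.223, unadjusted p 0.0792), and its low value of 13.81 on MD F1 replicate 6, against 14.97 to 15.31 on the other MD F1 arrays, carried much of it, since without that array it was -0.20 (unadjusted p 0.0292). Slc7a10, a transporter of small neutral amino acids, had -0.15 with its lowest F1 value, 11.76, on that array, and -0.0044 without it. Slc1a3, the glutamate transporter GLAST, had -0.11 with an unadjusted p of 0.268 by limma. The log2 signals of Slc1a3 ran from 13.81 to 14.1 in CD F1 and from 13.55 to 14.09 in MD F1, where 3 of the 6 arrays lay below all of CD F1 and the others within its range.

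All 6 genes of water, ion and end-foot proteins had values below 0, with a median of -0.17, and none reached an unadjusted p of 0.05. Hepacam had a log2 fold change of -0.34 and the bicarbonate cotransporter gene Slc4a4 of -0.24, and both had their lowest F1 value on MD F1 replicate 6, 8.61 and 9.98. Without that array they were -0.17 and -0.073. Mlc1, a membrane protein of end-feet that binds the Hepacam product, had -0.20, with 5 arrays in CD F1 because 1 spot was irregular. Without MD F1 replicate 6 Mlc1 had -0.28 (unadjusted p 0.01 by limma). The zinc transporter gene Slc39a12 had -0.13, the sodium pump subunit gene Atp1b2 -0.10 (-0.037 without that array) and Aqp4, the water channel of end-feet, -0.09. The log2 signals of Aqp4 were 12.12 to 12.28 in CD F1. In MD F1 they were 11.61 to 12.36 with a median of 12.15, the lowest on replicate 6, and without that array the log2 fold change was 0.01. The second probe of Aqp4, A_55_P2031939, gave -0.19 on all arrays. Without MD F1 replicate 6 it gave -0.27 (unadjusted p 0.029 by limma), so the 2 probes did not match. Dimmer probes of Slc4a4 (A_52_P457567) and Slc39a12 (A_55_P2036392) gave 0.17 and 0.03, and over all members 6 of 13 dimmer probes had the opposite sign to the brightest probe of their gene in F1.

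Of the remaining genes, Gja1, connexin 43, had a log2 fold change of -0.11 and Cldn10, a claudin, of 0.15. The calcium binding protein S100b had -0.00 and the receptors Fgfr3 and Ntsr2 had -0.10 and -0.07, while the transcription factor Sox9 had -0.02. The second probe of Fgfr3, A_65_P06147, gave -0.31 with an unadjusted p of 0.00159 and an FDR of 0.198 by limma, and so did not match the brightest one in size. The metabolic genes were all below 0, from Papss2, which makes the sulphate donor PAPS, at -0.14, and Phkg1, a subunit of phosphorylase kinase, at -0.13, through the acyl-CoA synthetase gene Acsbg1 at -0.08, to Aldoc, the brain aldolase, at -0.04. Among secreted and cell surface proteins Htra1, a serine protease, had -0.13, Clu, clusterin, -0.11, Mfge8, a bridging protein of phagocytosis, -0.08, the coagulation factor gene F3 -0.01, Pla2g7, a lipoprotein-associated phospholipase, 0.03, and Itih3, an inter-alpha-trypsin inhibitor chain, 0.05. The second probe of Pla2g7, A_66_P114784, gave -0.27 with an unadjusted p of 0.0394 by limma.

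Within slides the median of the 30 members was -0.115, -0.16 and -0.035, and 11 members were lower in MD F1 on all 3 slides while 1 was higher on all 3. The shares of all probes that did so were not computed, so these counts cannot be set against the array. The mean deviation of the members on an array ran from 0.00267 to 0.136 in CD F1 and from -0.215 to 0.00267 in MD F1. The lowest of these was MD F1 replicate 6, on which 10 members had their lowest and 5 their highest F1 value. Without that array 24 members were below 0 and 8 had an unadjusted p under 0.05, with a lowest FDR of 0.138 by limma. The shares of all probes in that fit are not given here. The log2 fold changes of 12 of the 30 members moved by over 1.5 times or turned in sign without it. Besides those given above, they were Cldn10 (0.066), S100b (-0.042), Sox9 (0.11), Ntsr2 (0.0054) and Htra1 (-0.24, unadjusted p 0.0113). Papss2 moved by less, from -0.14 to -0.20 (unadjusted p 0.0028 by limma without that array).

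**Figure D3:**
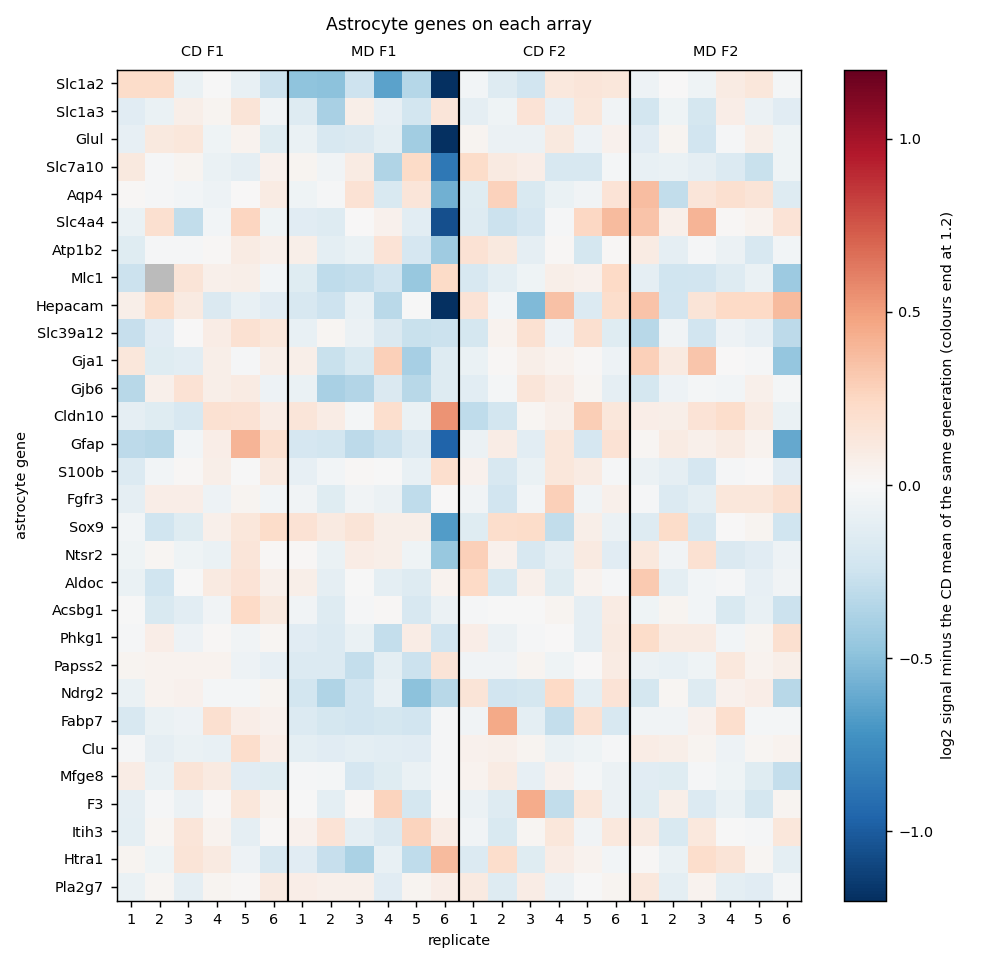
Log2 signal of each astrocyte gene on each array minus the mean of the CD arrays of the same generation, blue for lower and red for higher, with the irregular spot of Mlc1 in grey. The column of MD F1 replicate 6 holds the darkest blue, in Slc1a2, Glul, Slc4a4 and Hepacam, beside genes above 0 such as Cldn10. The other MD F1 columns also hold genes below and above 0, such as Slc7a10 above 0 on replicate 5.

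Lists of markers of other cells had medians below and above 0 in F1. The median log2 fold change was -0.10 for 14 neuronal genes, of which 3 were lower at an unadjusted p under 0.05, -0.11 for 14 oligodendrocyte genes, of which 2 were lower, -0.13 for 11 mural and meningeal genes, -0.00 for 13 microglial genes and -0.24 for 8 thalamic genes, of which 2 were lower. The 10 ependymal genes had a median of 0.38, with 7 higher at an unadjusted p under 0.05, and the 10 choroid plexus genes one of 0.57, with 0 at that p. Over the arrays, the mean log2 signal of the neuronal genes ran from 14.93 to 15.02 in CD F1 and from 14.75 to 14.98 in MD F1, and that of the ependymal genes from 8.57 to 8.75 and from 8.59 to 9.31, with no gene of either list at background on every array. Median background-corrected intensities before scaling averaged 280 over the CD F1 arrays with an SD of 26.0, and 226 over the MD F1 arrays with an SD of 37.3. The part of these shifts in the values of the astrocyte genes was not tested.

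Astrocyte genes outside the 30 were also read. Of 62 further astrocyte genes, 3 were higher and 5 lower at an unadjusted p under 0.05 in F1, 0 passed an FDR of 0.1 by limma, and their median was -0.02. Sdc4, a heparan sulphate proteoglycan, had -0.40 (SE 0.0971, FDR 0.196), the fatty acid desaturase gene Fads2 -0.28 and the receptor gene Fgfr2 0.26, both with an FDR of 0.214. The partners of the glutamate-glutamine cycle had 0 of 9 and the genes of glycogen and lactate 1 of 10 at that unadjusted p, the latter being Ldha, lactate dehydrogenase, at -0.18. Of 10 end-foot and potassium buffering genes 2 reached it, among them Slc4a3, an anion exchanger, at 0.20. Among reactive astrocyte genes 0 of 11 pan-reactive, 1 of 10 A1 and 2 of 10 A2 genes did, namely Psmb8 at 0.19, S100a10 at 0.26 and Cd14 at 0.21, all higher.

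The second comparison asks the same of the grandpaternal diet. In F2, 16 members were lower and 14 higher in MD F2 than in CD F2, with a median log2 fold change of -0.03 and a range from -0.21 to 0.19. No member passed an FDR of 0.1, the lowest being 0.89 by limma, and neither did any of the 39423 probes tested, 0.0%. At an unadjusted p under 0.05 there was 1 member, lower in MD F2, against 5.6% of all probes in either direction and 2.38% lower, and 45.7% of all probes had a log2 fold change below 0. The members' share below 0 was 53.3%, and with 75th percentile scaling their median was 0.02. No member had MD F2 arrays all below the CD F2 arrays, as 0.127% of all probes did.

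The 1 member was Mlc1, with log2 signals of 14.26, 14.33, 14.4, 14.52, 14.5 and 14.69 in CD F2 and 14.34, 14.21, 14.22, 14.3, 14.37 and 14.01 in MD F2. The groups overlapped, with the highest CD F2 and the lowest MD F2 value both in replicate 6. The log2 fold change was -0.21 (SE 0.0884, unadjusted p 0.0358, FDR 0.89 by limma) and -0.35, -0.08 and -0.21 within the 3 slides. Without the arrays that stand apart it was -0.16 with an unadjusted p of 0.111.

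Mfge8 and Slc39a12 had the next smallest p-values. Mfge8 had log2 signals of 15.37 to 15.56 in CD F2 and 15.18 to 15.45 in MD F2, with a log2 fold change of -0.13 (unadjusted p 0.0723), and Slc39a12 had 11.08 to 11.48 and 10.96 to 11.25, with -0.18 (unadjusted p 0.0748). The dimmer probe of Slc39a12, A_55_P2036392, gave -0.41 with an unadjusted p of 0.022 and an FDR of 0.89 by limma.

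The 5 genes with an unadjusted p under 0.05 in F1 had values from -0.09 to 0.02 in F2, and Glul had -0.05, whereas Hepacam, at -0.34 in F1, had 0.19, the highest F2 value of the 30. Slc1a2 had log2 signals of 13.32, 13.2, 13.12, 13.48, 13.5 and 13.49 in CD F2 and 13.29, 13.36, 13.3, 13.45, 13.49 and 13.33 in MD F2, with a log2 fold change of 0.02 (SE 0.0833). Its other probes gave -0.13 and 0.13. In CD F2 the 3 arrays labelled lh, a code the labels do not explain, lay below the 3 labelled rh on the brightest probe. In MD F2 the lh and rh arrays overlapped on that probe, and on A_55_P2136847 the lh arrays lay above the rh arrays. This was noticed after the values were seen, and the share of all probes that part these arrays was not counted. Gfap had 13.92 to 14.29 in CD F2 and 14.14 to 14.22 in MD F2 apart from 13.51 on MD F2 replicate 6, with a log2 fold change of -0.05 (SE 0.129). Aqp4 had 0.07 (SE 0.125), Slc1a3 -0.10 (SE 0.0775), Ndrg2 -0.09 (SE 0.111), Gjb6 -0.05 (SE 0.0703) and Fabp7 0.02 (SE 0.119). The second probe of Aqp4, A_55_P2031939, gave -0.22 (SE 0.117) in F2.

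Of the 62 further astrocyte genes, 1 was higher and 4 lower at an unadjusted p under 0.05 in F2, among them Slc7a11, a cystine transporter, at -0.59 (SE 0.161, FDR 0.89 by limma), the membrane linker gene Ezr at -0.42 and the glutathione transferase gene Gstm1 at 0.17. Of 11 pan-reactive genes 3 were lower, Cp, ceruloplasmin, at -0.47, the filament gene Vim at -0.21 and Cxcl10 at -1.62, each with an FDR of 0.89 by limma. Cxcl10 was dim and varied widely (SE 0.70), with mean log2 signals of 5.46 (SD 1.46) in CD F2 and 3.84 (SD 1.13) in MD F2. The A1 and A2 genes had 0 of 10 each, and so did the end-foot and glycogen lists, with 0 of 9 for the glutamate-glutamine cycle. Ependymal genes had a median of -0.64 with 6 of 10 lower, and choroid plexus genes a median of -2.11 with 0 of 10 at that p. The part of these 2 lists in the astrocyte values of F2 was not tested.

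The difference between the 2 generations was tested as the interaction of diet and generation over the 24 arrays, F1 effect minus F2 effect. It was below 0 for 20 of 30 members, 66.7%, with a median of -0.09, against 52.4% of all probes and a median of -0.01. No member passed an FDR of 0.1, the lowest being 0.432 by limma, against 0.0127% of all probes. At an unadjusted p under 0.05 there were 3, all below 0, against 8.29% of all probes and 4.59% below 0. They were Slc1a2 with a difference of -0.61 (SE 0.207, unadjusted p 0.00719, FDR 0.432 by limma), Phkg1 with -0.23 (SE 0.09, unadjusted p 0.0171) and Hepacam with -0.53 (SE 0.241, unadjusted p 0.0389).

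The other two probes of Slc1a2 gave interaction values of -0.44 and -1.05. Hepacam had log2 signals of 9.63 to 10.02 in CD F1, of 9.48 to 9.8 in MD F1 apart from 8.61 on replicate 6, of 9.16 to 10.04 in CD F2 and of 9.46 to 10.07 in MD F2. Phkg1 had 10.94 to 11.08 and 10.71 to 11.09 in CD F1 and MD F1, and 10.36 to 10.57 and 10.43 to 10.68 in CD F2 and MD F2, all of them overlapping. Without the 3 arrays that stand apart the values were -0.48 for Slc1a2 (unadjusted p 0.0022), -0.24 for Phkg1 and -0.40 for Hepacam (unadjusted p 0.0521). With the sex measure as a covariate they were -0.26, -0.16 and -0.17. The interaction was -0.29 for Gfap, -0.15 for Aqp4 and -0.00 for Slc1a3, with no unadjusted p under 0.178. The second probe of Aqp4 gave 0.06. An F1 effect that differs from that in F2 was thus not called for any member.

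The levels of the members were compared between generations as a description only, since generation, slide and scan could not be told apart. The generations also differed in labelled background, congenic in F1 and mixed in F2, and in the sex measure. That measure lay between -2.32 and 0.11 in F1, and in F2 either between -7.69 and -7.43 or between 5.14 and 7.62. The part of these differences in the levels was not tested. With the 24 arrays normalised together, Gfap averaged 12.11 (SD 0.278) over the 6 CD F1 arrays, 11.78 (SD 0.285) in MD F1, 14.44 (SD 0.161) in CD F2 and 14.39 (SD 0.293) in MD F2 on the log2 scale. The CD F2 mean was 2.33 above that of CD F1, a fold of 5.01, and every F2 array lay above every F1 array. The other two probes of Gfap differed by 2.51 and 2.30. On brightest probes no other member had so large a difference between the control groups, but dimmer probes of Slc39a12 (A_55_P2036392) and Pla2g7 (A_66_P114784) differed by 2.43 and 2.40.

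Acsbg1 was 1.33 higher on the log2 scale in CD F2 than in CD F1, Slc4a4 1.01, Ndrg2 0.83, Slc39a12 0.71 and Sox9 0.69. In all, 11 members had every F2 array above every F1 array, as 12.6% of all probes did, and 2, Itih3 at -0.52 and Pla2g7 at -0.32, had every F2 array below, as 13.2% of all probes did. These are values of brightest probes, and 6 of the 13 dimmer probes had the opposite sign, among them those of Pla2g7 (2.40), Slc4a4 (-0.85 on A_52_P457567) and Aqp4 (0.68). The median difference was 0.34 over the members and -0.01 over all probes. With 75th percentile scaling 6 members lay wholly above, Gfap, Acsbg1, Slc4a4, Slc39a12, Sox9 and Papss2, and the median of the members was 0.05. Gfap then differed by 2.10 and Ndrg2 by 0.40. In the middle of the order, S100b, Gja1 and Slc7a10 differed by less than 0.05 between CD F1 and CD F2 and their groups overlapped. Slc1a2 was 0.19 lower in CD F2 on its brightest probe and 0.55 higher on A_55_P2392625.

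**Figure D4:**
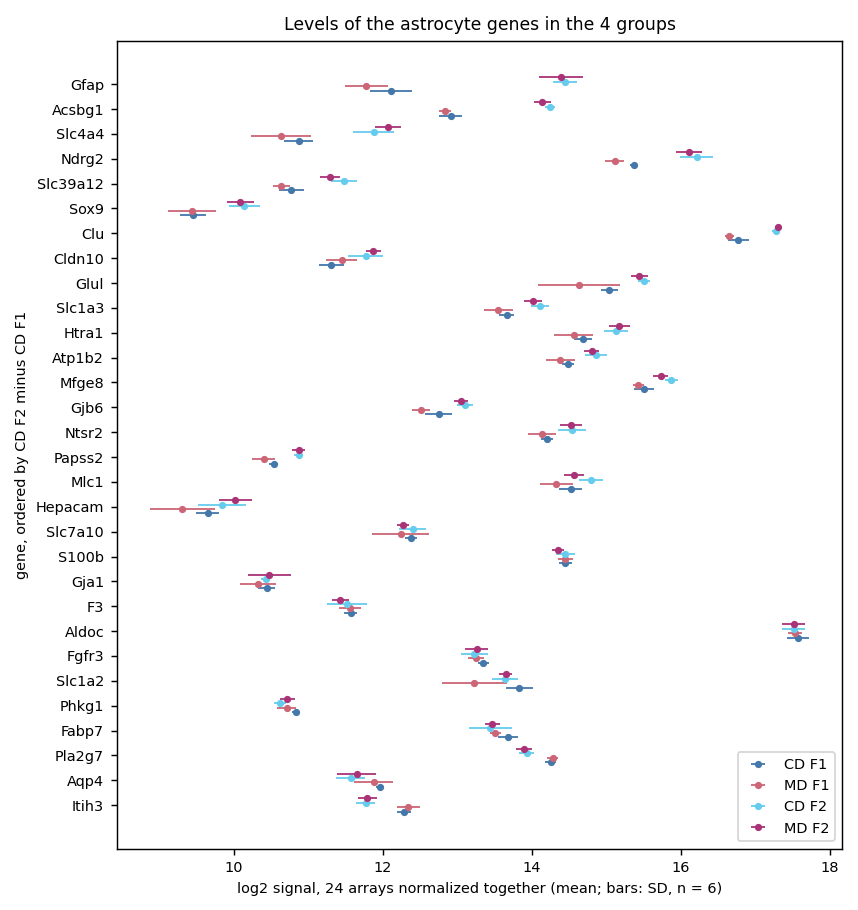
Mean log2 signal of each astrocyte gene in the 4 groups with the 24 arrays normalised together, bars giving the SD of 6 arrays, genes ordered by CD F2 minus CD F1. Gfap at the top lies at 12.11 in CD F1 and 14.44 in CD F2, while most genes in the lower part of the plot have overlapping groups.

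The last question was whether the astrocyte genes went up and down together over the arrays. Correlations were computed over the 12 arrays of a generation after group means were removed, and are descriptions over pools that share slides and processing. Over the 435 pairs of members the median Pearson r was 0.08 in F1 and -0.01 in F2. Over all pairs of the genes well above background on 24 arrays it was 0.02 in F1 and 0.00 in F2. Lists of other cells had medians as low, with 0.08 in F1 and F2 for 14 neuronal genes and 0.10 and -0.07 for 13 microglial genes, or higher. The 14 oligodendrocyte genes had a median r of 0.40 in either generation, and the 8 choroid plexus genes one of 0.94 in F1 and 0.98 in F2. An r above 0.5 was found for 20.2% of member pairs in F1 and 10.1% in F2, against 15.1% and 15.0% of all pairs.

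The highest r in F1 joined Papss2 and Htra1 (0.956), Slc7a10 and Aqp4 (0.951) and Slc1a2 and Hepacam (0.947), and the lowest Aqp4 and Papss2 (-0.964), Aqp4 and Htra1 (-0.949) and Hepacam and Cldn10 (-0.911). Without MD F1 replicate 6 these were 0.848, 0.824, 0.741, -0.87, -0.823 and -0.925. In F2 the same 6 pairs had r of -0.0706, -0.126, 0.484, 0.116, 0.644 and -0.156. In F2 the highest r joined Aldoc and Pla2g7 (0.851), Slc1a3 and Slc39a12 (0.839) and Slc39a12 and Sox9 (0.77), and the lowest Hepacam and Sox9 (-0.832), Slc39a12 and Phkg1 (-0.829) and Sox9 and Itih3 (-0.802).

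In both generations 6 pairs had an r above 0.5, out of 88 pairs in F1 and 44 in F2. They made up 6.82% of the former, against 10.1% of all member pairs above 0.5 in F2, and 13.6% of the latter, against 20.2% in F1. Slc1a2 and Glul, the transporter and the synthetase of the glutamate-glutamine cycle, had 0.839 and 0.615, but without MD F1 replicate 6 the F1 value was -0.0455. Mlc1 and Cldn10 had 0.712, or 0.358 without that array, and 0.729, Slc39a12 and Sox9 0.53 and 0.77, Mfge8 and Htra1 0.564 and 0.75, Gja1 and Acsbg1 0.538 and 0.624, and Atp1b2 and Ntsr2 0.823 and 0.528. In these last 4 pairs the F1 r ran from 0.542 to 0.711 without that array. Of all 435 pairs 227 had the same sign in F1 and F2.

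**Figure D5:**
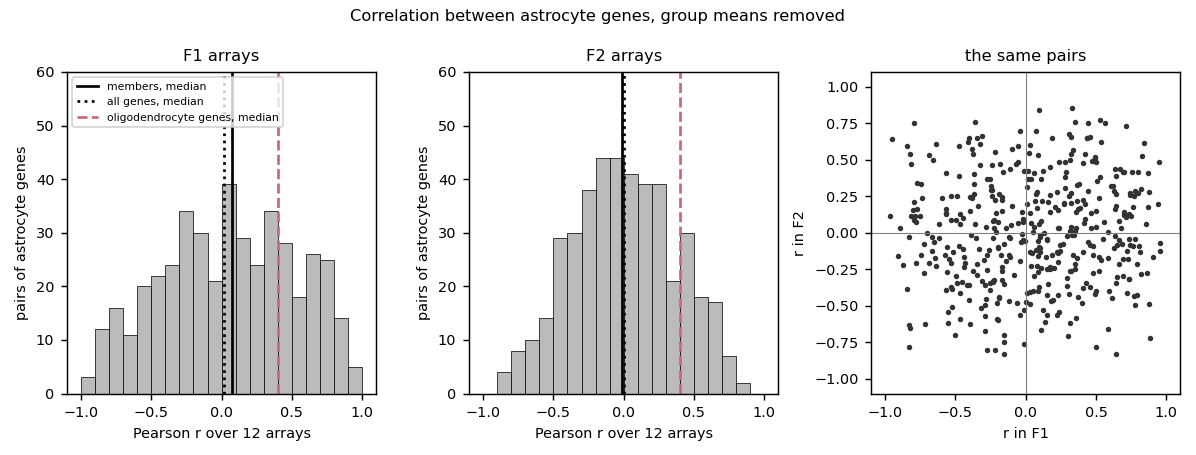
Pearson r between pairs of astrocyte genes over the 12 F1 arrays (left) and the 12 F2 arrays (middle), group means removed, and the same 435 pairs in both generations (right). The medians of the members, 0.08 and -0.01, lie beside those of all genes and left of those of the oligodendrocyte genes, 0.40.

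The spread of the members within groups was like that of other bright genes, with a median SD of 0.154 in F1 and 0.139 in F2 on the log2 scale, against 0.137 and 0.149 for genes at least as bright as the dimmest member. Glul (0.417), Slc1a2 (0.348) and Hepacam (0.324) had the widest spread in F1 and Hepacam (0.274) in F2, and the narrowest in F1 was that of Pla2g7 (0.0802). Over the 24 arrays Gfap followed the mean of the other members most closely, with r = 0.722, and Papss2 went against it, with r = -0.544.

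Outside the 30 members, the 10 genes whose deviations were most like the mean of the members over the 24 arrays included Champ1, Tm9sf3, Dlx5, Scd1, Rsu1, Syt4, Ets1, Nsdhl and Fut11, with r from 0.863 to 0.804. Without the 3 arrays that stand apart the r of those named ranged from 0.6 to 0.759. None of those named was on one of the astrocyte lists.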

How the data were processed

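Hippocampal RNA was labelled in 1 colour and hybridised to 24 Agilent mouse arrays. The authors deposited the scanner output, in which gProcessedSignal is a background-corrected intensity (Agilent Feature Extraction 10.7.3.1 per the file headers). They also deposited a table of processed intensities, of which the log2 was used here as an alternative. From each file the 43020 non-control spots were taken as log2 of gProcessedSignal, irregular spots were left out (1939 in F1, 2097 in F2), spots were quantile normalised within a generation (over 24 arrays for the interaction and for levels), and spots of a probe were averaged, giving 39429 probes. Probes were named through RefSeq accessions, which gave a symbol for 26055.

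Groups of 6 arrays were compared with limma 3.58.1 in R 4.3.3, with Benjamini-Hochberg adjustment over all probes and an FDR threshold of 0.1, and the script was tested on simulated data. Single probes were also compared by exact permutation of 6 against 6 arrays (924 splits, two-sided). Members and lists were chosen with earlier results of these data known. The rule for named genes was to account for all 30 members, to give values per array for those with an unadjusted p under 0.05 in a comparison (or the 3 smallest), to give Gfap, Aqp4, Slc1a2 and Slc1a3 in every comparison, and to name up to 3 genes of each other list. A listed gene counted as measured when well above background on at least 12 of 24 arrays. Glul, the members that MD F1 replicate 6 moved and the dimmer probes named were singled out after their values were seen.

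Alternatives were 75th percentile scaling, no scaling, normexp, the authors' table, leaving out dim probes, slide, replicate number, sex measure or the code of the F2 labels as a further term, the mean of all probes of a gene, all 24 arrays together, and leaving out arrays. Replicate numbers did not pair the samples, since correlations of deviations between arrays of the same number ran from -0.174 to 0.204. Whether replicates were separate litters is not stated, so that p-values measure the spread between these pools. Values of some genes that met the naming rule are not reported here.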

Additional observations from a re-analysis of the deposited data

Results flagged for a closer look

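Dixon's criterion for 1 array far from the other 5 of its group was applied to the 30 members and to their mean in each of the 4 groups. It marked 13 of 124 sets, where chance would mark about 6.2, and 9 of the 13 fell on MD F1 replicate 6.

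On that array Slc1a2 read 12.62 against 13.48 to 13.87 on the other MD F1 arrays, Glul 13.81 against 14.97 to 15.31, Slc4a4 9.98 against 10.88 to 11.09, and Hepacam 8.61 against 9.48 to 9.8. Gfap read 11.38 against 12.03 to 12.18, Sox9 8.93 against 9.67 to 9.77 and Ntsr2 14.06 against 14.43 to 14.6. Fabp7, at 13.95 against 13.74 to 13.8, and Clu, at 17.17 against 17.04 to 17.06, were high there. The sex measure of this array was 0.11, outside the range of the other F1 arrays, and its part in these values was not tested.

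The remaining 4 marks lay on single arrays. Gfap was low on MD F2 replicate 6 (13.51 against 14.14 to 14.22), Hepacam low on MD F2 replicate 2 (9.46 against 9.85 to 10.07), Aldoc high on MD F2 replicate 1 (17.49 against 17.06 to 17.16) and Pla2g7 low on MD F1 replicate 4 (14.43 against 14.6 to 14.64).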

How the results depend on the processing

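The count of members at an FDR under 0.1 was 0 in all 3 comparisons under every alternative except no scaling in F1. That fit called 8, among them Slc1a2 (-0.83), Ndrg2 (-0.44), Gjb6 (-0.47), Fabp7 (-0.38) and Gfap (-0.60). The share of all probes called in it is not given here, so this count cannot be set against the array. With no scaling the median of all probes was -0.28 in F1 and -0.23 in the interaction, and that of the members -0.33 and -0.26. The 5 members with an unadjusted p under 0.05 in F1 became 3 with 75th percentile scaling, 16 with no scaling, 2 with the replicate block, and 3 to 8 without single arrays. In F2 the 1 such member became 0 with 75th percentile scaling, no scaling or the replicate block and 2 with the sex measure, the mean of all probes or 24 arrays together, and the median of the members was 0.016 with 75th percentile scaling. Without single arrays these were 0 to 2 members in F2 and 2 to 5 in the interaction. The shares of all probes at that unadjusted p under these alternatives are not given here either. The replicate block changed no call at the FDR.

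Signs turned for Aqp4 with the sex measure (0.11 in F1, 0.071 in the interaction) and with the mean of its probes in F2 (-0.077), for Gfap in F2 with 75th percentile scaling (0.00026) and for Slc1a3 in the interaction with normexp (0.058). Without single arrays the values ran from -0.14 to 0.0088 for Aqp4 in F1, from -0.23 to -0.063 for Aqp4 in the interaction, from 0.009 to 0.14 for Aqp4 in F2, from -0.029 to 0.047 for Slc1a2 in F2, from -0.086 to 0.067 for Gfap in F2 and from -0.051 to 0.053 for Slc1a3 in the interaction. The median r between members was 0.607 in F1 and 0.797 in F2 with no scaling, and in F2 0.158 with 75th percentile scaling, 0.0371 with normexp and 0.0634 with the mean of all probes, against 0.0236 to 0.0929 in F1 and -0.0248 to 0.00771 in F2 without single arrays. The median of CD F2 minus CD F1 was 0.052 with 75th percentile scaling. Of the 244 measured genes of the other lists, 34 in F1 and 27 in F2 had an unadjusted p under 0.05. Of all probes 14.4% in F1 and 5.6% in F2 did. With no scaling the counts were 95 and 7, and the shares of all probes in those fits are not given here. The causes were not tested. Normexp was run on median signals, chosen after seeing the data, because the version on mean signals was not run, and leaving out the arrays that stand apart was also added then.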

Other observations

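In F2, 3 arrays had a sex measure below 0, CD F2 replicates 3 and 5 and MD F2 replicate 6, with values of -7.63, -7.69 and -7.43, and the other 9 lay between 5.14 and 7.62. The log2 signal of Gfap on its brightest probe was 13.99, 13.92 and 13.51 on these 3 arrays and from 14.05 to 14.29 on the other 9. This was noticed after the values were seen and was not tested. How many other members, or what share of all probes, part these arrays in the same way was not counted. Values of the dimmer Gfap probes on these arrays are not given here.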
